A study of Arabidopsis thaliana with 42 samples.

Results

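The effect of losing VIL1 in warmth was measured by RNA sequencing of Arabidopsis thaliana seedlings, as the 2 vil1 libraries set against the 2 wild type (WT) libraries from plants kept at 27 °C. These 4 libraries are part of 12 RNA libraries, in 6 groups of 2, in a series of 42 samples, the other 30 being ChIP-seq, not used here. WT plants were of the accession Col-0 and carried no other change named in the labels. vil1 plants, called vil1-1 in the titles, carried that allele alone. The same 2 genotypes at 22 °C are set beside the 27 °C values. The arp6 and arp6vil1 plants at 22 °C entered only the estimate of spread, the choice of tested features and the scaling in some alternative fits. All plants were whole seedlings 14 days old, harvested at ZT-6, and the labels mention both long and short days without saying which applied to the RNA samples. Nothing in the labels says that the 2 libraries of a group came from separate cultures of plants, so every p-value measures the spread between these libraries, which may be technical.

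VIL1, listed under the symbol VRN5, belongs to the VEL family of PHD-finger proteins. Its members work together with Polycomb repressive complex 2, the enzyme that puts H3K27me3 on chromatin and keeps marked genes silent, and they are best known for the silencing of the flowering repressor FLC after winter cold. In warm but not stressful temperatures Arabidopsis seedlings elongate and flower earlier, a response that runs through the transcription factor PIF4, auxin synthesis and cell wall loosening, and the comparison asks which transcripts depend on VIL1 in that state.

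Levels are in RPKM as the authors deposited them, that is, read numbers divided by gene length and by library depth. Differences between genotypes are on the log2(RPKM + 1) scale, vil1 minus WT, with a standard error (SE) from 1 model over the 12 libraries, and understate the change of genes at low levels. A feature passed when its adjusted p over all 31454 tested features was under 0.05. Depth was 75 and 61.5 M reads in WT and 81 and 58.6 M in vil1 at 27 °C. Replicates correlated at r = 0.9855 in WT and 0.9879 in vil1, and libraries of different genotype at 0.9823 to 0.985, all across features. Chloroplast genes held 6.88 to 7.40% of summed RPKM in these 4 libraries, so no library stood apart in that share. The arp6 libraries stood apart with 6566 and 6651 features at 0, against 104 to 194 in WT and vil1 libraries. A stretch of neighbouring features from AT5G54320 to AT5G54460 was raised in vil1 replicate 1 at 27 °C and in vil1 replicate 2 at 22 °C, and not in the other WT and vil1 libraries. None of the 17 features of that stretch passed. What these 2 libraries share, and its part in the vil1 values at either temperature, was not tested. Without vil1 replicate 1 at 27 °C, 86 features passed in vil1 against WT at 27 °C, where 290 passed with all libraries.

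VRN5, the gene the mutant is named for, was at 8.71 and 8.29 RPKM in WT and at 6.91 and 6.27 in vil1 at 27 °C. Both vil1 libraries lay below both WT libraries, which was seen in 39.1% of all tested features. The difference of -0.32 (SE 0.08) did not pass (adjusted p = 0.13), beside a median of -0.12 over all features. At 22 °C its level was 6.71 and 6.67 in WT and 5.13 and 5.38 in vil1. The VRN5 level therefore does not check the genotype, which rests on the labels.

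A small share of features passed in vil1 against WT at 27 °C, while 4524 had an unadjusted p under 0.05 by limma. With 2 libraries a group, the number that passed does not measure how many transcripts depend on VIL1. Of 31454 features, 290 passed (0.922%), 106 of them higher in vil1 (0.337%) and 184 lower (0.585%). The higher features had a median log2 difference of 0.79 and the lower ones of -0.85, and 27 and 65 of them differed by 1 or more. Among the higher features 97 were nuclear protein-coding genes, 1 was mitochondrial, none was from the chloroplast and 8 were noncoding, pseudogenes or not matched to the gene table. Among the lower ones 162 were nuclear protein-coding genes and 22 were of those other kinds.

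The balance of higher and lower calls depended on how libraries were scaled. Across all tested features the median difference was -0.12, and 75.6% of features had a negative value. The median nuclear coding gene was at 4.97 RPKM in both WT libraries and at 4.6 and 4.21 in the vil1 libraries. With quantile normalization 206 features were higher and 148 lower, with the library medians set equal 275 were higher and 114 lower, and after removal of a trend with gene length 307 were higher and 148 lower. Of the 290 calls, 225, 217 and 238 passed in the same direction in those 3 fits. A difference given below is best read against the median of -0.12.

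**Figure D1:**
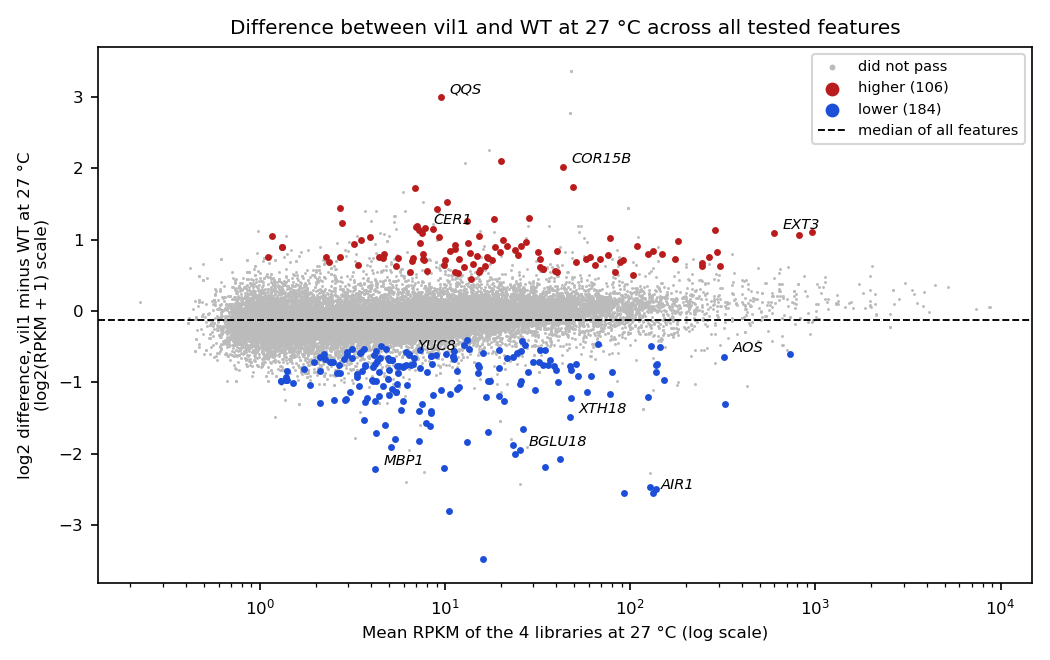
Log2 difference between vil1 and WT at 27 °C (vertical axis) against the mean RPKM of the 4 libraries at 27 °C (horizontal log axis), with 1 point per tested feature. The 106 higher features are red, the 184 lower ones blue, and the dashed line is the median of all features at -0.12.

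Genes are named by size, 12 in each direction. Only genes with a symbol, a mean of 5 RPKM or more in a group and libraries that do not overlap between genotypes were eligible. Lack of overlap was also seen in all 106 higher and all 184 lower features that passed. Where it is given below for a gene that passed, it describes the values and adds no support. The largest rise was in QQS, a gene found only in Arabidopsis thaliana that affects starch content. Its level was 1.16 and 1.54 RPKM in WT and 16.3 and 19.2 in vil1 at 27 °C. The genotypes were far apart and the difference was 3.0 (SE 0.12, adjusted p = 5.84e-06). At 22 °C the same gene was at 1.14 and 1.56 in WT and 17.8 and 17.3 in vil1, so the WT levels at the 2 temperatures overlap.

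The next 2 by size were COR15B and COR15A, neighbouring genes for chloroplast proteins that protect membranes during freezing. COR15B was at 15.8 and 17.4 RPKM in WT and at 67.2 and 73.2 in vil1, a difference of 2.02 (SE 0.11, adjusted p = 5.1e-05). COR15A was at 22.6 and 21.7 in WT and at 73.3 and 78.6 in vil1, a difference of 1.73 (SE 0.13, adjusted p = 0.000248). The mean vil1 level was 4.24 times that of WT for COR15B and 3.43 times for COR15A, and the genotypes did not overlap. At 22 °C WT was higher than at 27 °C, with 30.1 and 25.3 for COR15B and 37.8 and 41.7 for COR15A.

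Next come 4 other named genes that rose. PAP85, a vicilin-like seed storage protein, was at 2.26 and 3.07 RPKM in WT and at 10.7 and 11.5 in vil1 (1.73, SE 0.12, adjusted p = 0.000216). CER1, which makes the alkanes of cuticular wax, was at 4.78 and 4.08 in WT and at 11 and 11.2 in vil1 (1.16, SE 0.09, adjusted p = 0.000348). Both genes were clear of WT in each vil1 library. EXT3, an extensin of the cell wall, was at 501 and 284 in WT and at 826 and 791 in vil1 (1.10, SE 0.20, adjusted p = 0.0349). TT4, the chalcone synthase that opens flavonoid synthesis, was at 226 and 141 in WT and at 381 and 406 in vil1 (1.13, SE 0.19, adjusted p = 0.0256). In these 2 abundant genes the WT libraries were far from each other, and with the 8 WT and vil1 libraries alone neither passed (adjusted p = 0.106 for EXT3 and 0.06 for TT4).

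The remaining higher genes named by size had log2 differences of 0.95 to 1.30. CYP81D8, a cytochrome P450, went from 15.2 and 16.6 RPKM in WT to 42.3 and 39.1 in vil1. SUFE2, an activator of cysteine desulfurase for iron-sulfur clusters, went from 3.99 and 3.80 to 9.72 and 10.8, and ATCTH, a tandem zinc-finger protein, from 45.5 and 56.6 to 103 and 105. SRG3, a glycerophosphodiester phosphodiesterase, went from 17 and 19.7 to 36.4 and 37. ELIP2, an early light-induced protein of the thylakoid, went from 9.51 and 8.12 to 19 and 16.9. In each of these 5 genes both vil1 libraries were above both WT libraries, as the rule for naming required. Their adjusted p ran from 0.00104 for SUFE2 to 0.026 for SRG3.

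The falls were led by AIR1, a proline-rich lipid-transfer-like protein first found as induced by auxin in roots. AIR1 was at 287 and 168 RPKM in WT and at 38.3 and 35.1 in vil1 at 27 °C, a difference of -2.55 (SE 0.28, adjusted p = 0.00299). The vil1 level was low in both libraries and the genotypes were well apart, although the WT libraries were uneven. At 22 °C AIR1 was at 14.8 and 29.4 in WT and at 11.2 and 10.1 in vil1. Its span overlaps that of AT4G12555 over 93% of its length, so reads of the 2 loci cannot be told apart here. EARLI1, a related protein encoded nearby, was at 59 and 56 in WT and at 11.6 and 12.1 in vil1 (-2.19, SE 0.37, adjusted p = 0.0235). EARLI1 was at a like level in WT at 22 °C, 59.2 and 74.8.

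Among the other large falls were genes whose WT level at 27 °C stood above that at 22 °C, while vil1 at 27 °C lay near the 22 °C values. A WT mean higher at 27 than at 22 °C was seen in 159 of the 184 lower features. It was seen in 38 of the 106 higher ones. The same 2 WT libraries at 27 °C enter this count and the calls. The count is therefore partly set by the choice of features and adds no support. Over all tested features the WT difference, 27 minus 22 °C, was negative in 36.4%. BGLU18, a beta-glucosidase of endoplasmic reticulum bodies that releases abscisic acid from its glucose ester, was at 40.9 and 40.8 RPKM in WT and at 8.32 and 11.6 in vil1. Its difference at 27 °C was -1.95 (SE 0.22, adjusted p = 0.00338), against 22 °C levels of 8.06 and 4.22 in WT and 6.25 and 7.32 in vil1. LCR85, a small cysteine-rich protein of the defensin-like group, was at 20.8 and 12.9 in WT and at 2.58 and 3.04 in vil1 (-2.20, SE 0.32, adjusted p = 0.012). NRT1.8, a nitrate transporter that takes nitrate out of the xylem, was at 24.1 and 18 in WT and at 4.46 and 5.8 in vil1 (-1.84, SE 0.18, adjusted p = 0.00162). In none of the 3 did the genotypes overlap. JAL23, a jacalin-type lectin, was at 7.30 and 8.04 in WT and at 1.73 and 2.01 in vil1 (-1.59, SE 0.12, adjusted p = 0.00028). WT levels at 22 °C were 1.11 and 2.78 for LCR85, 5.78 and 3.83 for NRT1.8, and 1.65 and 1.55 for JAL23. In none of these genes did the vil1 difference at 27 °C pass as unlike that at 22 °C. The adjusted p of that test was 0.372 for LCR85 and 0.129 for BGLU18, NRT1.8 and JAL23.

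MSRB7, a methionine sulfoxide reductase, showed the same order, with 14 and 9.72 RPKM in WT against 2.55 and 2.58 in vil1. CYP710A4, which desaturates the sterol side chain, was at 8.92 and 5.18 in WT against 1.65 and 1.15 in vil1. Each WT library lay above each vil1 library in both genes. The differences were -1.83 (SE 0.21, adjusted p = 0.00317) for MSRB7 and -1.71 (SE 0.23, adjusted p = 0.00744) for CYP710A4. CYP710A4 did not pass with the 4 libraries at 27 °C alone (adjusted p = 0.0567). The test of 27 against 22 °C did not pass in either gene (adjusted p = 0.372 for MSRB7 and 0.332 for CYP710A4).

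In a further group the level was low in vil1 at either temperature. CBR, an NADH-cytochrome b5 reductase, was at 37.8 and 36.2 RPKM in WT and at 9.50 and 9.19 in vil1 at 27 °C (-1.88, SE 0.10, adjusted p = 5.1e-05), and at 27.2 and 23.6 against 8.04 and 8.39 at 22 °C. BSU1, a phosphatase of brassinosteroid signalling, was at 8.80 and 8.44 in WT and at 1.75 and 1.37 in vil1 at 27 °C (-1.91, SE 0.13, adjusted p = 0.000176). MBP1, a myrosinase-binding protein, was at 8.47 and 6.69 in WT and at 1.06 and 0.648 in vil1 (-2.21, SE 0.15, adjusted p = 0.000216). All 3 passed at 22 °C too. MRD1 was at 24.5 and 28.9 in WT and at 8 and 7.02 in vil1 (-1.70, SE 0.14, adjusted p = 0.000402), and its neighbour HEI10, a factor of meiotic crossing over whose span overlaps it, fell by 1.40 on the log2 scale.

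Some of the largest calls have no gene symbol and are named here after their values were seen. AT1G75945 was at 15.7 and 22.4 RPKM in WT and at 2.13 and 1.58 in vil1 at 27 °C (-2.80, SE 0.20, adjusted p = 0.000216). AT1G64795 was at 29.1 and 31.1 in WT and at 3.12 and 0.888 in vil1 (-3.48, SE 0.30, adjusted p = 0.000655), and lies wholly inside the span of AT1G64790. AT1G73120 was at 4.77 and 9.70 in WT and at 31.4 and 33.9 in vil1 (2.1, SE 0.22, adjusted p = 0.0026). In all 3 the 22 °C libraries differed in the same direction and passed.

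**Figure D2:**
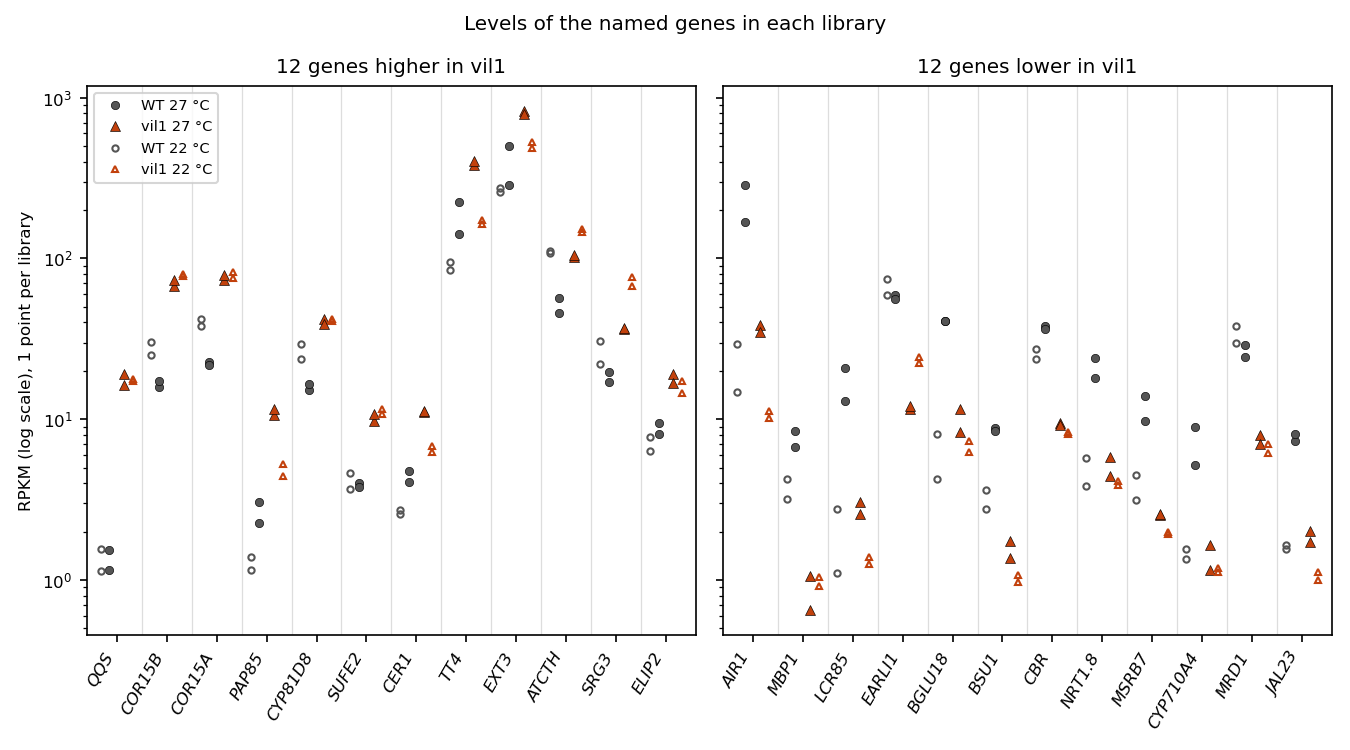
RPKM on a log axis of the 12 genes named as higher (left) and the 12 named as lower (right) in vil1, with 1 point per library, circles for WT and triangles for vil1, filled at 27 °C and open at 22 °C. At 27 °C no WT point overlaps a vil1 point, as the rule for naming required, from QQS (1.16 and 1.54 against 16.3 and 19.2) to AIR1 (287 and 168 against 38.3 and 35.1).

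Of the genes in VIL1's own pathway none passed. Of 10 tested VEL family and Polycomb repressive complex 2 genes none passed, with a median difference of -0.10 beside -0.12 for all features. VIN3, the cold-induced partner of VRN5, was at 1.24 and 1.62 RPKM in WT and at 1.39 and 0.845 in vil1, and these levels overlap. FIE and EMF2, core subunits, had differences of -0.13 and -0.10, and these turned slightly positive when medians were set equal or quantiles matched. None of 11 genes of Polycomb complex 1, H3K27me3 readers and demethylases passed (median -0.14). The largest difference there was in RING1A, a ubiquitin ligase subunit, at 3.46 and 3.54 in WT and 2.46 and 2.31 in vil1 (-0.41, SE 0.13, adjusted p = 0.216).

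FLC was at 4.16 and 4.90 RPKM in WT and at 5.09 and 4.97 in vil1 at 27 °C, a difference of 0.13 (SE 0.10) that did not pass (adjusted p = 0.529). The vil1 libraries were a little above WT. FLC is wholly overlapped by AT5G01675, and whether reads were counted by strand is not given in the sources used here. None of the 15 tested genes of the FLC clade and other flowering repressors passed, with a median of -0.02. MAF5, an FLC relative, was at 1.38 and 1.72 in WT and at 2.80 and 2.55 in vil1 (0.53, SE 0.13, adjusted p = 0.12), and it passed as higher under the 3 other scalings and in a fit to recovered reads. The repressors SMZ, SNZ and RAV2 had differences of -0.36, 0.21 and 0.23.

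Of 12 tested flowering promoters 1 fell and none rose. That gene was AGL20, also called SOC1, a MADS factor that joins the flowering pathways, at 5.33 and 5.98 RPKM in WT and 3.42 and 3.03 in vil1. The genotypes did not overlap and the difference was -0.66 (SE 0.11, adjusted p = 0.0197). AGL20 was lower in vil1 at 22 °C too, with 10 and 11.7 in WT against 5.96 and 5.45. With the WT and vil1 libraries alone its adjusted p was 0.0702, and it did not pass without any 1 of the 4 libraries at 27 °C. The mobile flowering signal FT was below the limit for testing, at 0.594 and 0.631 in WT and 0.682 and 0.455 in vil1.

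None of 12 tested floral and meristem regulators, a list drawn up as targets of Polycomb silencing, passed, and their median was -0.18. PI, a floral organ MADS factor, had the largest difference, from 9.33 and 11.6 RPKM in WT to 6.07 and 5.96 in vil1 (-0.70, SE 0.15, adjusted p = 0.0612), and it passed as lower in the fit to recovered reads. Its WT level was above that of the median nuclear coding gene, 4.97. SEP3, CUC2 and CUC3 had differences of -0.30 to -0.31 at levels under 2 RPKM. Of 11 seed maturation genes none passed, at levels from 0.861 to 3.64 for GEA6, CRU3, EM1 and OLEO2.

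None of 17 PIF and shade growth genes passed. PIF4 was at 33.2 and 31.1 RPKM in WT and at 35.8 and 36.5 in vil1 (0.17, SE 0.14, adjusted p = 0.563), and the growth factor gene HB-2 at 22 and 18.7 against 16 and 16.2 (-0.32, SE 0.11, adjusted p = 0.24). HFR1, PIL1 and PAR1, which restrain PIF factors, had differences of -0.30, -0.27 and 0.34.

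Of 20 auxin synthesis and response genes 1 fell. YUC8, the flavin monooxygenase that makes auxin in warm-grown seedlings under PIF4, was at 8.28 and 7.56 RPKM in WT and at 5.12 and 4.63 in vil1. Every vil1 library was below every WT library, and the difference was -0.60 (SE 0.10, adjusted p = 0.02). Its level at 22 °C was 5.71 and 6.19 in WT and 4.44 and 4.16 in vil1. YUC8 did not pass with the WT and vil1 libraries alone (adjusted p = 0.061) or with library medians set equal. Nor did YUC8 pass with the 4 libraries at 27 °C alone (adjusted p = 0.127). The auxin-induced repressors IAA19 and IAA29 had differences of 0.07 and 0.05 (adjusted p = 0.793 and 0.858), with overlapping libraries in both.

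SAUR genes are small auxin-induced growth genes, and none of 17 passed. Their median difference was 0.26 beside -0.12 for all features, and in 11 of 17 both vil1 libraries were above both WT libraries. Such separation of the genotypes was seen in 47.5% of all tested features, with vil1 above WT in 8.38% and below it in 39.1%, and the list was not tested as a group. SAUR68 was at 10.6 and 12.7 RPKM in WT and at 17.4 in both vil1 libraries (0.55, SE 0.12, adjusted p = 0.0843). SAUR66 had a difference of 0.51, SAUR21 of 0.42 and SAUR63 of 0.43, the last with a span wholly overlapped by AT1G29435. Under the other scalings 2 or 3 SAUR genes passed as higher.

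Of 17 expansins and xyloglucan enzymes 3 fell and none rose. XTH18, which cuts and rejoins wall xyloglucan, was at 64 and 77.3 RPKM in WT and at 24.7 and 24.4 in vil1 at 27 °C (-1.48, SE 0.14, adjusted p = 0.00104). XTR6, of the same enzyme family, was at 78.5 and 82.3 in WT and at 43.4 and 41.1 in vil1 (-0.91, SE 0.13, adjusted p = 0.011). XTH19, next to XTH18 on the chromosome, was at 8.96 and 8 in WT and at 4.73 and 4.45 in vil1 (-0.76, SE 0.14, adjusted p = 0.0395). In all 3 the genotypes were apart, and WT at 22 °C was far lower, at 15.6 and 16.2 for XTH18 and 19.3 and 19.8 for XTR6. The median of the list was -0.04 beside -0.12 for all features, and the other 14 members did not pass. Of the 3, only XTH18 passed without each of the 4 libraries in turn. XTH19 did not pass under the 3 other scalings or with the WT and vil1 libraries alone (adjusted p = 0.0788), and EXPA11, an expansin, passed as higher under those scalings and in the fit to recovered reads.

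Heat-shock proteins fold or protect other proteins in heat, and none of the 27 tested genes for them and their transcription factors passed at 27 °C, with a median of -0.07. HSP70 was at 123 and 121 RPKM in WT and at 145 and 155 in vil1 (0.29, SE 0.21, adjusted p = 0.513), while at 22 °C it was at 25.3 and 14.8 against 60.4 and 60.8. HSP23.6-MITO, a small mitochondrial chaperone, had WT libraries at 66.3 and 139 and vil1 libraries at 180 and 179 (0.89, SE 0.31, adjusted p = 0.245), and it passed as higher without WT replicate 2. HSFA2 and HSP101 had differences of -0.37 and -0.30. None of 19 clock genes passed (median -0.07). PRR9 was at 10.6 and 9.25 in WT and at 5.58 and 5.92 in vil1 (-0.69, SE 0.20, adjusted p = 0.162), and GRP7, an RNA-binding output of the clock, had a difference of 0.48.

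Cold and dehydration genes were the list with most rises, and the list was chosen with these results known. Of 25 tested genes 5 rose, none fell and 20 did not pass, with a median of 0.11. Besides COR15B and COR15A these were KIN1, KIN2 and LTI30. KIN2 was at 217 and 206 RPKM in WT and at 378 and 371 in vil1 (0.82, SE 0.13, adjusted p = 0.0166). KIN1, its neighbour, was at 17.6 and 12.1 in WT and at 30.1 and 26.5 in vil1 (0.91, SE 0.16, adjusted p = 0.0268). LTI30, a dehydrin, was at 16 and 17.2 in WT and at 28.9 and 32.9 in vil1 (0.85, SE 0.12, adjusted p = 0.00949). In all 5 the vil1 libraries at 27 °C were clear of WT. The CBF factors that switch on cold genes did not pass, with differences of -0.12 for CBF1, -0.18 for CBF2 and -0.01 for DREB1A. The same 5 genes passed under each scaling tried. KIN1 did not pass with the WT and vil1 libraries alone (adjusted p = 0.0788) or with the 4 libraries at 27 °C alone (adjusted p = 0.136). COR15A, COR15B, KIN2 and LTI30 passed in both of those fits.

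Of 20 flavonoid and anthocyanin genes 2 rose, TT4 and MYB90, none fell, and the median was 0.18. MYB90, an activator of anthocyanin synthesis, was at 1.38 and 1.5 RPKM in WT and at 2.75 and 3.50 in vil1 (0.75, SE 0.14, adjusted p = 0.0336), with no overlap. PAP1, its close relative, had a difference of -0.61 (adjusted p = 0.18). In 13 of 20 both vil1 libraries were above both WT libraries, which was seen in 8.38% of all tested features. Neither TT4 nor MYB90 passed with the WT and vil1 libraries alone.

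None of 18 antenna and Rubisco genes passed. In 14 of 18 both vil1 libraries were above both WT libraries, which was seen in 8.38% of all tested features. The list's median was 0.08, and -0.09 with quantile normalization, and 1 member passed as higher with library medians set equal. RBCS2B, a Rubisco small subunit, had a difference of 0.39 (SE 0.10, adjusted p = 0.125), and RBCS3B, RBCS1B and RBCS1A had 0.36, 0.38 and 0.26.

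Jasmonate is the wound and defence hormone made from linolenic acid. Of 25 jasmonate, ethylene and wound genes 3 fell, none rose and 22 did not pass, with a median of -0.39. That median varied with the WT library used. Without WT replicate 1 at 27 °C it was -0.20, beside -0.15 for all features. Without WT replicate 2 it was -0.52, beside -0.09. AOS, which commits linolenic acid to jasmonate, was at 405 and 382 RPKM in WT and at 251 and 253 in vil1 (-0.64, SE 0.10, adjusted p = 0.0128). AOC1, the next enzyme, was at 211 and 146 in WT and at 94 and 100 in vil1 (-0.85, SE 0.14, adjusted p = 0.0238). CORI3, a cystine lyase that responds to jasmonate, was at 27.7 and 22.3 in WT and at 13.1 and 14.8 in vil1 (-0.79, SE 0.15, adjusted p = 0.0433). In each the genotypes did not overlap. The storage proteins VSP1 and VSP2 had larger differences of -0.99 and -1.0 that did not pass (adjusted p = 0.069 and 0.16). No gene of the list passed with the 4 libraries at 27 °C alone, and between 0 and 4 passed as lower when each of these libraries was left out.

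Other defence and nutrient lists held few calls. None of 17 salicylic acid genes and none of 17 glucosinolate genes passed, with medians of -0.08 and -0.07. BGL2, a glucanase of the salicylic acid response, was at 1.37 and 1.35 RPKM in WT and at 3.47 and 2 in vil1 (0.64, SE 0.18, adjusted p = 0.165). MYB51, an activator of indolic glucosinolates, had a difference of 0.52 (SE 0.12, adjusted p = 0.0877). Of 15 senescence and sugar starvation genes 1 rose, EXL2, from 79.1 and 91.9 to 120 and 122 (0.50, SE 0.09, adjusted p = 0.0373). Of 19 iron, phosphate and sulfur genes SPX1, a phosphate sensor, rose by 0.84 (adjusted p = 0.0463) and LSU2, a gene induced by low sulfur, fell by 0.76 (adjusted p = 0.0293). SPX1 was at 26.6 and 30.6 in WT and at 48.5 and 55.4 in vil1, and LSU2 at 193 and 156 against 101 and 103. The genotypes did not overlap in either gene, and neither passed with library medians set equal.

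**Figure D3:**
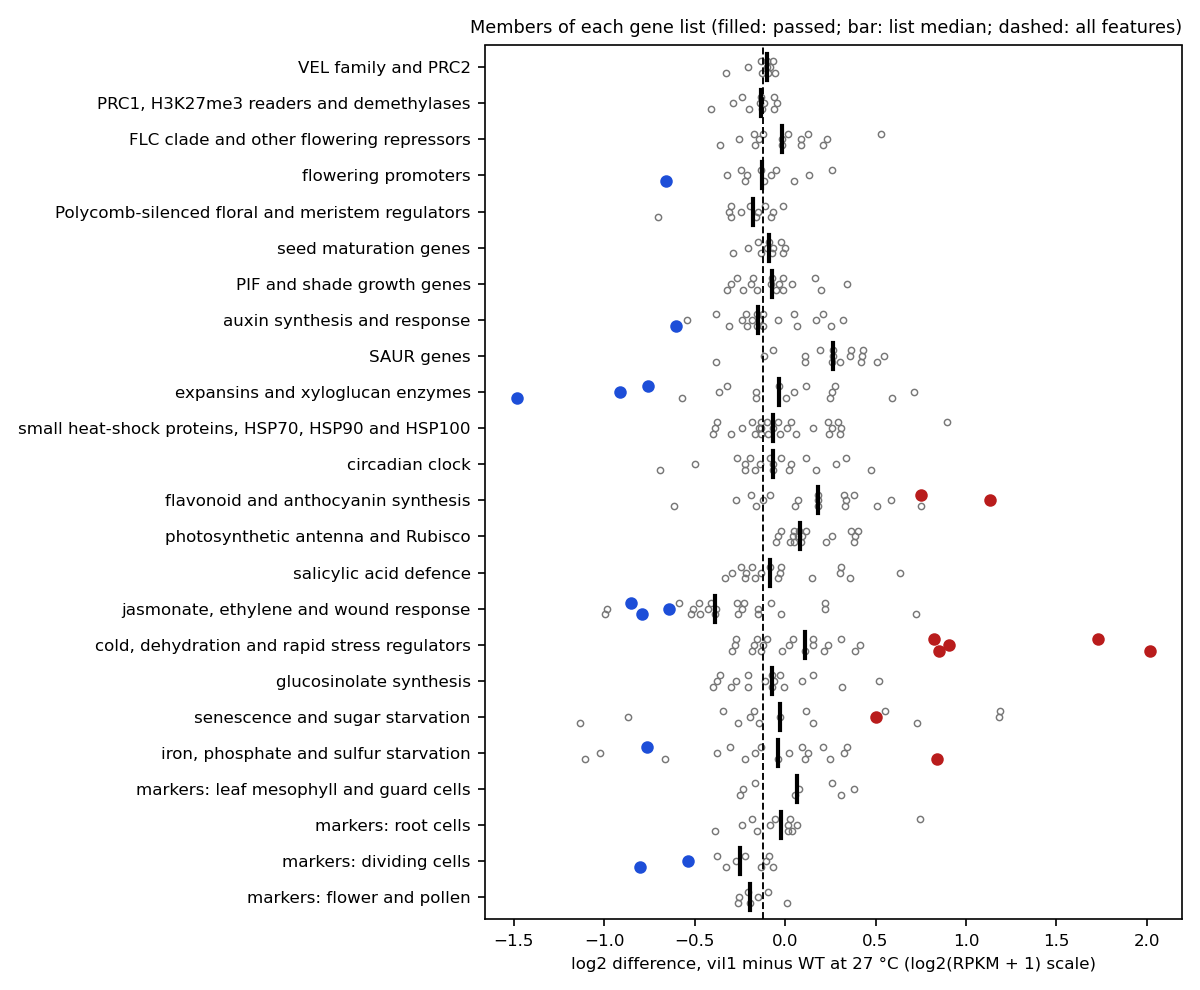
Log2 difference between vil1 and WT at 27 °C for each tested member of the 24 gene lists (open points did not pass, red passed as higher, blue as lower), with a bar at each list's median and a dashed line at the median of all features, -0.12. The cold list reaches 2.02 with COR15B and the xyloglucan list -1.48 with XTH18, while the Polycomb lists hold no filled point.

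Markers of cell types were read to check the tissue. Leaf and root genes were both present, as in a whole seedling. The mesophyll and guard cell markers summed to 7927 and 8440 RPKM in WT and 9160 and 9491 in vil1 at 27 °C, the root markers to 966 and 788 against 752 and 800, and the flower and pollen markers to 17.7 and 19.9 against 18.4 and 16. None of 8 mesophyll and guard cell markers, none of 12 root markers and none of 7 flower and pollen markers passed. Of 10 markers of dividing cells 2 fell and none rose, and in 8 of 10 both vil1 libraries were below both WT libraries, which was seen in 39.1% of all tested features. SYP111, the syntaxin that builds the cell plate, was at 10.6 and 8.66 in WT and at 4.67 and 5.48 in vil1 (-0.80, SE 0.12, adjusted p = 0.0112). Of its span, 31.4% overlaps AT1G08550. AUR1, an Aurora kinase of mitosis, was at 3.99 and 3.85 in WT and at 2.44 and 2.35 in vil1 (-0.54, SE 0.09, adjusted p = 0.025). The summed level of the 10 dividing-cell markers was 35.4 and 33.6 in WT and 25.7 and 24 in vil1, with no overlap. In bulk samples fewer dividing cells and less RNA per cell cannot be told apart, and the part of either in the other results was not tested. With library medians set equal neither gene passed, and neither did with the 4 libraries at 27 °C alone.

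The 27 °C differences were then set beside those at 22 °C, which come from other libraries of the same genotypes. At 22 °C 1291 features passed (4.1%), 677 higher (2.15%) and 614 lower (1.95%). Of the 290 features that passed at 27 °C, 127 also passed at 22 °C in the same direction and none in the opposite one. These 127 are 43.8% of the 27 °C calls and 9.84% of the 22 °C calls. Both counts depend on single libraries, and that at 22 °C was 8939 and 92 without WT replicates 1 and 2 at 22 °C, and 30 and 37 without vil1 replicates 1 and 2. Of the 106 higher features 96 were higher at 22 °C as well, with a median there of 0.59 against 0.79 at 27 °C. Of the 184 lower features 168 were lower at 22 °C, with a median there of -0.42 against -0.85. Across features, which are not independent replicates, the differences at the 2 temperatures correlated at r = 0.374 over all tested and at 0.812 over the 290 calls, the latter chosen by their size at 27 °C.

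**Figure D4:**
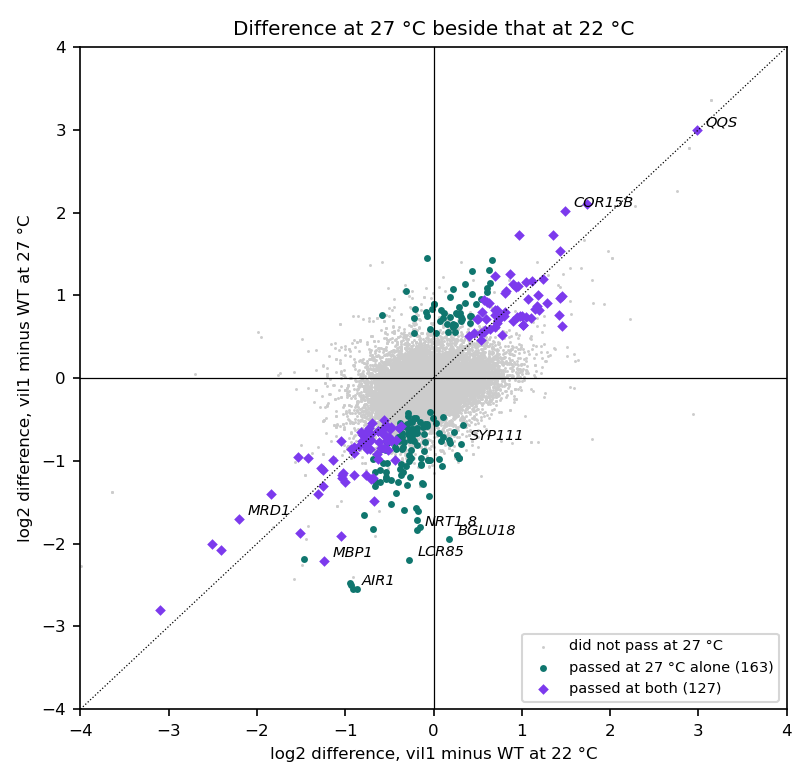
Log2 difference between vil1 and WT at 27 °C (vertical axis) against that at 22 °C (horizontal axis), with 1 point per tested feature, the dotted line where both are equal, and 1 feature outside the axes. Purple points (127) passed at both temperatures, green points (163) at 27 °C alone, and QQS lies on the line while BGLU18 and LCR85 lie near 0 at 22 °C.

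No feature passed the test of the difference between the 2 temperatures by limma, where the smallest adjusted p was 0.129 and 3880 features had an unadjusted p under 0.05. A fit to recovered reads called 7, and without WT replicate 1 at 22 °C 1803 features passed, among them the 8 genes named for this difference. A fit to nuclear coding genes alone called 9. By the limma fit to all tested features no transcript can be called particular to 27 °C. The differences between 27 and 22 °C were -2.12 for BGLU18, -1.65 for NRT1.8, -1.26 for JAL23 and -1.12 for SYP111, each with an adjusted p of 0.129. In JAZ10, a jasmonate repressor, vil1 libraries at 22 °C were at 23 and 23.1 RPKM against 12.4 and 11.8 in WT, while at 27 °C they were at 15.1 and 17.1 against 18.7 and 17.2. Hsp70-2, a cytosolic chaperone, was at 15.1 and 15.9 in vil1 at 22 °C against 6.83 and 6.06 in WT, and at 16 and 15.8 against 15 and 13.5 at 27 °C. The difference was -1.03 for JAZ10 and -1.0 for Hsp70-2, both with an adjusted p of 0.129.

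The 4 genes named for a positive difference between the temperatures all belong to late anthocyanin synthesis. As none passed, they were taken by smallest unadjusted p and not by size. LDOX, which makes the coloured anthocyanidin, was at 43.9 and 37.2 RPKM in WT and at 52.7 and 50 in vil1 at 27 °C, and at 18.2 and 21.3 against 6.46 and 8.04 at 22 °C. UF3GT, a sugar transferase of anthocyanins, was at 20.8 and 17.1 against 24.9 and 23.2 at 27 °C, and at 10.1 and 12.6 against 3.19 and 3.97 at 22 °C. At 22 °C vil1 was thus below WT in both genes, and at 27 °C slightly above. The differences were 1.67 and 1.76 (adjusted p = 0.135 for each), and 1.61 for AT5MAT and 1.65 for GSTF12 (adjusted p = 0.296 for each).

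Some called genes lay side by side on the chromosome, a pattern noticed after the values were seen. The share of neighbours alike in direction over all tested genes was not counted, so the counts that follow are a description only. A run of called genes, such as AT4G12543, AT4G12545, AIR1 and AT4G12555, counts as more than 1 pair. Among the 259 called nuclear coding genes with a known position there were 28 pairs of direct neighbours, 27 of them with both genes changed in the same direction, and 8 of those pairs have overlapping spans. The others include tandem copies that can share reads, such as AOC1, AOC2 and AOC3, with differences of -0.85, -0.60 and -0.84, and MSRB7, MSRB8 and MSRB9, with -1.83, -1.14 and -0.98. They also include unlike genes. CYP705A5, CYP708A2 and THAS1, neighbouring genes that make and oxidise the triterpene thalianol, fell by 1.14, 1.03 and 1.19 on the log2 scale. THAS1 was at 36.2 and 19.6 RPKM in WT and at 11.1 in both vil1 libraries. CYP705A12 and CYP71A16, of the marneral gene cluster, fell by 1.30 and 1.13. BGLU18 and TSA1, which both belong to endoplasmic reticulum bodies, fell by 1.95 and 1.05. PYK10, the abundant glucosidase of these bodies, did not pass, at 917 and 744 RPKM in WT and 701 and 755 in vil1 (-0.18, adjusted p = 0.658). With the WT and vil1 libraries alone, AOC1, AOC2, CYP708A2, THAS1 and TSA1 did not pass (adjusted p = 0.0608 to 0.125). The other called genes of this paragraph passed in that fit.

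The number of calls at 27 °C varied with the libraries used. With the 8 WT and vil1 libraries alone 161 features passed, 153 of them among the 290, and with the 4 libraries at 27 °C alone 120 passed, 98 of them among the 290. At 27 °C, leaving out WT replicate 1 left 98 calls, leaving out WT replicate 2 left 253, leaving out vil1 replicate 1 left 86 and leaving out vil1 replicate 2 left 62. The 22 °C libraries bear on the count through the estimate of spread, and it was 456 and 460 without WT replicates 1 and 2 at 22 °C, and 166 and 171 without vil1 replicates 1 and 2. QQS, COR15B and CBR had adjusted p of 0.00305 in the fit to the 4 libraries alone.

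**Figure D5:**
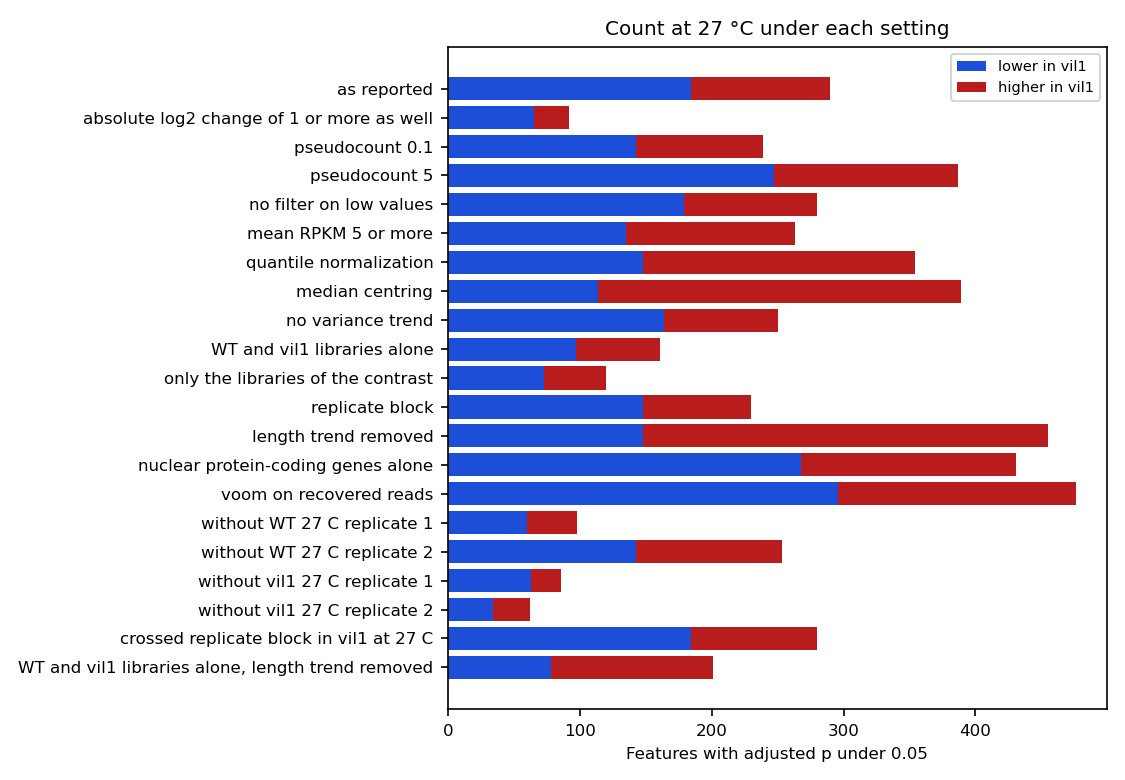
Number of features that passed in vil1 against WT at 27 °C (horizontal axis, bars from 0) under each setting, with lower features in blue and higher ones in red. The count as reported is 290, it is 62 to 253 when 1 library at 27 °C is left out, and higher features outnumber lower ones with quantile normalization, median centring and length trend removed.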

How the data were processed

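Total RNA of whole seedlings was sequenced in 12 libraries, in 6 groups of 2. Per the submitters' processing notes the tools were HISAT2, Bowtie2, bedtools, SAMtools, FastQC and edgeR, on TAIR10, with no step tied to a tool. The authors deposited 1 table of RPKM for 34262 features, already scaled to depth. Whole reads were recovered from it with gene spans (99.94 to 99.95% of values whole within 0.02 reads), giving depths of 52.5 to 102.8 M reads. On the log2(RPKM + 1) scale, limma 3.58.1 (R 4.3.3) fitted 1 mean per group with a variance trend and Benjamini-Hochberg adjustment. Features needed an RPKM of 1 in 2 libraries, which 31454 reached. The script was tested on simulated data. Values of 1432 features lie within 1% of another feature's and none of these was named by size. Symbols and neighbours came from a RefSeq table of TAIR10.1, which matched 32548 loci.

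Genes are named by size (12 in each direction), from each of 24 gene lists (up to 4 members) and as a fixed group. That group is FLC, FT, PIF4, YUC8, IAA19, IAA29, HSP70 and HB-2. For the difference between temperatures none passed. There 4 in each direction are named by smallest unadjusted p, at an absolute log2 difference of 0.58 or more. The contrast, the lists and the rule were chosen with earlier results of these data known. Of 406 listed loci 7 had no symbol and were dropped, and 20 were below the limit. Alternatives covered the pseudocount, the limit on low values, scaling, gene length, the libraries fitted, the replicate number and voom on recovered reads, which called 476 features. Promoter motifs and sequences were not analysed here.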

Additional observations from a re-analysis of the deposited data

Results flagged for a closer look

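The following genes had both vil1 libraries on one side of WT at 27 °C and on the other side at 22 °C. In none did the difference between the temperatures pass, with adjusted p of 0.129 or more. This pattern was seen in 1746 of the tested features (5.55%). Values are log2 differences between vil1 and WT, at 27 °C first.

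In anthocyanin synthesis LDOX had 0.34 and -1.33, UF3GT 0.33 and -1.43, AT5MAT 0.75 and -0.86, and GSTF12 0.07 and -1.58. The jasmonate genes JAZ10 and JRG21 had the opposite order, with -0.15 and 0.88, and -0.45 and 1.03. SYP111, the cytokinesis syntaxin, had -0.80 and 0.32, and it passed at 27 °C alone. The clock gene CCA1 had -0.50 and 0.30, and the growth gene SAUR66 0.51 and -0.19. The Polycomb subunit EMF2 had -0.10 and 0.06, and the flowering repressor RAV2 0.23 and -0.34. The glucosinolate sulfotransferase SOT17 had -0.30 and 0.14. Of the guard cell markers, KAT1 had -0.25 and 0.10 and FMA -0.23 and 0.20.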

How the results depend on the processing

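The count of 290 at 27 °C was 92 with a log2 difference of at least 1, 161 with WT and vil1 libraries alone, 120 with the 4 libraries at 27 °C, 455 with the length trend removed, 476 with voom, and 62 to 253 without 1 library. The count of 0 for the difference between temperatures was 1 with a pseudocount of 5, 9 among nuclear coding genes, 7 with voom and 0 to 1803 without 1 library, where 1803 came without WT replicate 1 at 22 °C. The count of 1291 at 22 °C was 140 with a log2 difference of at least 1, 2450 at mean RPKM 5 or more, 537 without the variance trend, 156 with WT and vil1 libraries, 57 with the 4 at 22 °C, 619 with the replicate block, 2629 among nuclear coding genes, 2717 with voom, and 30 to 8939 without 1 library. The cause of these moves was not tested, beyond the fewer features or libraries in some.

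The replicate numbers were not shown to pair the samples. Same-numbered libraries deviated together with r = 0.22 between the WT groups, and with r = -0.15 and -0.25 between vil1 at 27 °C and WT at 27 and 22 °C. WT depths were also alike by number, 75 and 75 M reads in replicate 1 and 61.6 and 61.5 M in replicate 2. With the number as a replicate block 230 features passed at 27 °C and 0 for the difference. Added after the data were seen, a crossed replicate block gave 280 at 27 °C and 1960 at 22 °C. The length trend removed with WT and vil1 libraries alone, also added, gave 201 at 27 °C and 112 at 22 °C.

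VRN5 did not pass in any of 19 settings (adjusted p 0.0929 to 0.654), with values of -0.38 to -0.17. Of 40 named results past the threshold, 19 to 30 stayed past it without 1 library, 34 with quantile normalization, 32 with median centring and 29 with the WT and vil1 libraries alone, and none turned direction. Of the named genes, those that turned direction at 27 °C passed in none of their 19 settings. FIE had 0.0078 with quantiles and 0.0188 with medians set equal. EMF2 had 0.0484 and 0.0502 in those 2 settings, and 0.0046 with the length trend removed in all or in the WT and vil1 libraries. EM1 had 0.0176 and 0.0027, and OLEO2 0.0547 and 0.0494, 0.0106 with the length trend removed in either set, and -0.2641 to 0.0609 without 1 library. SHV2 had 0.0180 with quantiles. Without 1 library at 27 °C, SHV2 ran from -0.3067 to 0.0007, IAA19 from -0.0489 to 0.1817 and IAA29 from -0.0355 to 0.1378.

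With 2 libraries a group, a gene that did not pass is not shown to be alike in both genotypes.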

Other observations

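Other groups were put together after their values were seen, and carry no test as groups. Their members were picked because they passed, so the share of each kind of gene that passed is not given. Over all tested features 0.585% passed as lower and 0.337% as higher. Besides SYP111 and AUR1, 6 genes of mitosis and cytokinesis passed as lower in vil1 at 27 °C. AUR2, an Aurora kinase, was at 6.22 and 7.12 RPKM in WT and at 3.17 and 3.45 in vil1 (-0.83, adjusted p = 0.00559), and 24.8% of its span overlaps AT2G25890. CDC20.2 and CDC20.1, neighbouring activators of the anaphase-promoting complex and close copies that can share reads, fell by 0.71 and 0.57 on the log2 scale. NPSN11, a partner of SYP111, the microtubule bundler PLE and the microtubule protein EDE1 fell by 0.55, 0.62 and 0.60. With the WT and vil1 libraries alone, AUR2 and CDC20.2 passed and the other 4 did not. None of the 6 passed with the 4 libraries at 27 °C alone (adjusted p = 0.0658 to 0.193).

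Some genes of the plant surface were called, and were picked because they passed. Besides CER1, KCS16, an elongase of very long chain fatty acids, was at 8.76 and 10.4 RPKM in WT and at 17 and 18.1 in vil1 (0.82, adjusted p = 0.0198). PDF1, an epidermal gene, was at 49 and 53.8 in WT and at 87.5 and 84.6 in vil1 (0.73, adjusted p = 0.00854). LTL1 and CYP77B1 rose by 0.66 and 0.70, while KCS6, the main wax elongase, fell by 0.51. Also picked because they passed were 3 genes that use arginine or ornithine, all of them lower. ADC2, an arginine decarboxylase, was at 629 and 313 in WT and 173 and 186 in vil1 (-1.30, adjusted p = 0.0402, and 0.107 with the WT and vil1 libraries alone). ARGAH2, an arginase, fell by 1.17 and NATA1, an ornithine acetyltransferase, by 1.52. Among sulfur genes LSU3, APK and HMT-1 fell by 0.96, 0.71 and 0.87. NIA1, a nitrate reductase, rose from 7.42 and 7.94 to 13.5 and 16.3 (0.87, adjusted p = 0.00461), and ERD5, a proline dehydrogenase, from 70.5 and 80.6 to 142 and 141 (0.90, adjusted p = 0.00588). Of genes that acetylate wall polysaccharides, TBL26, TBL27, TBL37 and RWA2 fell by 1.21, 0.48, 0.75 and 0.42. With the WT and vil1 libraries alone KCS16, KCS6, NATA1, LSU3, TBL27 and RWA2 did not pass either.

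Some features differed between libraries of 1 group. In 11 of 17 features from AT5G54320 to AT5G54460, vil1 replicate 1 at 27 °C and vil1 replicate 2 at 22 °C were both over 5 times every other WT and vil1 library. AT5G54420 was at 48.6 and 59.3 RPKM in those 2 libraries and at 0.621 to 1.95 in the other 6. AT5G54365 was at 184 and 222 against at most 3.38. Well expressed genes inside the stretch were not raised 5 times. THE1 was at 25 and 22.3 in those 2 libraries and at 12.9 to 26.5 in the others, and HL at 33.7 and 31.2 against up to 47.3. PHOS32 was slightly above the others, at 29 and 27.7 against at most 24.5. So was CLUB, at 4.85 and 5.03 against at most 4.33. AT5G32017 was at 0.348 and 168 in the vil1 libraries and at 15 and 330 in the WT libraries at 27 °C. MLP31, a major latex protein, was at 28.6 and 28.7 in WT at 27 °C and at 1.19 and 32.1 in vil1. None of these passed. Whether plants or libraries were mixed was not tested, and the labels do not say how the replicates were made.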
